A study of Homo sapiens with 36 samples.

Results

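The sterol and lipid ABC transporters described here are ABCA1, ABCG1, ABCA2, ABCA3 and ABCA7. They were found by symbol in the deposited gene count table, and all 5 were present among its 58243 genes. RNA sequencing had been run on 36 libraries from 3 established human pancreatic ductal adenocarcinoma lines, named BxPC-3, PANC-1 and MIA PaCa-2. Each line was given the vehicle DMSO, the synthetic liver X receptor (LXR) agonist GW3965, or 1E5 or 3A4. The labels call those 2 code-named compounds LXR inverse agonists. Ligands were used at 10 µM for 48 h, and each of the 12 groups held 3 libraries. All groups shared 10% fetal bovine serum, 37 °C and 5% CO2, but RPMI 1640 was the medium of BxPC-3 and DMEM that of PANC-1 and MIA PaCa-2, so line and medium cannot be told apart. The titles call the libraries biological replicates without saying whether they came from separate cultures, so a p-value measures the spread among these libraries only, which may be technical.

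ABC transporters are membrane proteins that use ATP to move lipids and other cargo across or along a membrane. ABCA1 passes cholesterol and phospholipid to lipid-poor apolipoprotein A-I, and ABCG1 passes sterol on to high-density lipoprotein particles. Both genes are textbook targets of LXR, a nuclear receptor for oxysterols that binds DNA together with the retinoid X receptor (RXR) and that drives the release of surplus cholesterol from cells. ABCA2 works in lysosomes and late endosomes and is known for its part in sterol traffic and myelin. ABCA3 loads phospholipid into the lamellar bodies of alveolar type II cells of the lung, where it is needed for surfactant. ABCA7 moves phospholipid and is known from phagocytosis and from the genetics of Alzheimer disease.

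Library totals ran from 14960970 to 26026684 counts in PANC-1 and 19605935 to 25888304 in BxPC-3. In MIA PaCa-2 they were uneven, at 23675670 to 25503827 with 1E5, 8889927 to 24588097 with 3A4, 2701393 to 13631719 with GW3965 and 3609582 to 10996848 with DMSO. The share of counts from mitochondrial genes was lower with 1E5 in 2 lines. It was 7.55% ± 0.0303 (SD, n = 3) with DMSO and 2.04% ± 0.721 with 1E5 in MIA PaCa-2, and 6.82% ± 0.708 and 4.40% ± 1.99 in PANC-1. PANC-1 1E5 replicate 2 stood apart at 6.59%, and some results of the 5 genes that use it are also given without it. The 14 genes taken from the lists below and called with 1E5 in PANC-1 kept their calls without it. The 8 ductal epithelial markers checked summed to between 542 and 8411 CPM (counts per 1000000 counts of the scaled library total) in every group, while the 4 endothelial markers summed to at most 25.6 CPM. The 6 fibroblast markers summed to 247 to 257 CPM with DMSO and 9.37 to 27.9 with 1E5 in MIA PaCa-2, and to 53.9 to 180 and 4.93 to 16.9 CPM in PANC-1. With 3A4 they lay at 11.8 to 36.9 CPM in PANC-1 and 94.7 to 169 in MIA PaCa-2. The 8 macrophage and blood cell markers of PANC-1 summed to 11.52 to 17.6 CPM with DMSO, 46.3 to 78.8 with 1E5 and 50.7 to 53.0 with 3A4. In MIA PaCa-2 they lay at 21.1 to 35.1 CPM with DMSO and 6.82 to 9.89 with 1E5. With 1E5 the ductal sum was lower than with DMSO in MIA PaCa-2 (542 to 608 against 1374 to 1701 CPM) and in PANC-1 (776 to 964 against 3287 to 5116 CPM). The part of depth, of the mitochondrial share and of these markers in the results was not tested. In bulk RNA, fewer cells of a type and less RNA per cell cannot be told apart.

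The genes lie on 4 chromosomes of GRCh38. ABCA1 (ENSG00000165029) covers chr9:104781002-104928237 on the minus strand and ABCA2 (ENSG00000107331) chr9:137007227-137028922, also on the minus strand. ABCG1 (ENSG00000160179) covers chr21:42199689-42297244 on the plus strand, ABCA3 (ENSG00000167972) chr16:2275881-2340746 on the minus strand, and ABCA7 (ENSG00000064687) chr19:1040101-1065572 on the plus strand. Genes annotated within or across ABCA1, ABCG1, ABCA2 and ABCA3 share 0 exon bases with them. The overlapping gene with the most counts was the pseudogene ABCA17P, antisense to ABCA3, with 562 counts in all libraries beside 42158 for ABCA3.

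RefSeq promoter windows (GRCh38.p14) were held for 4 of the genes, ABCG1 being the other one. The LXR:RXR pair is known to bind direct repeats of AGGTCA with 4 bases between the units. The 250 bases before each RefSeq start were searched on both strands for this repeat, with at most 2 mismatches in its 12 fixed positions. A match lay in the ABCA1 window, at chr9:104928209-104928224, 69 to 54 bases before the RefSeq start and inside the gene span given above. It is shown because ABCA1 was the member that rose with the LXR agonist in every line. The first line gives 30 bases on the gene's strand with the repeat units, read there as their reverse complement, in capitals. The second gives the 168 bases upstream of that gene span, on its 5′ side, with 3 GGGCGG boxes and a CACGTG box in capitals.
ABCA1 repeat, chr9:104928202-104928231, minus strand: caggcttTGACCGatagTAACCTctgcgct
ABCA1 upstream, chr9:104928238-104928405, minus strand: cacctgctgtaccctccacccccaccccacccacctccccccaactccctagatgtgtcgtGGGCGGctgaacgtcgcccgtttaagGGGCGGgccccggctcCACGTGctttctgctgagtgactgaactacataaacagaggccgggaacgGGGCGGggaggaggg
Read on the plus strand and counted from 1 at its 5′ end, the repeat in ABCA1 differs from the 2 perfect units at C5T and A11C. Such a match was present in 2.03% of 35116 promoter windows of the table, GGGCGG on either strand in 42.6% and CACGTG in 6.34%. The 2 windows of ABCA2 and those of ABCA3 and ABCA7 held no match at this tolerance, which says only that these letters are absent from these 250 bases.

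With DMSO the 5 genes ranked differently in each line. Levels between genes are given here as CPM per kb of annotated exon. In BxPC-3, ABCA2 (5.75 ± 0.789, SD, n = 3), ABCA7 (4.75 ± 0.683) and ABCA1 (4.24 ± 1.12) lay within their spread of each other, above ABCG1 at 1.58 ± 0.477. In MIA PaCa-2, ABCA2 stood highest at 14.1 ± 1.91, followed by ABCA7 at 7.25 ± 0.498 and ABCA3 at 6.93 ± 0.163, which did not differ beyond their spread, then by ABCG1 at 2.21 ± 0.395 and ABCA1 at 1.13 ± 0.359. In PANC-1, ABCA3 led at 15.5 ± 1.12 over ABCA7 (5.63 ± 0.625) and ABCA2 (4.89 ± 1.01), with ABCA1 at 0.624 ± 0.138 and ABCG1 at 0.183 ± 0.0582. ABCA3 in BxPC-3 reached 0.0336 ± 0.00881 CPM per kb.

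**Figure D1:**
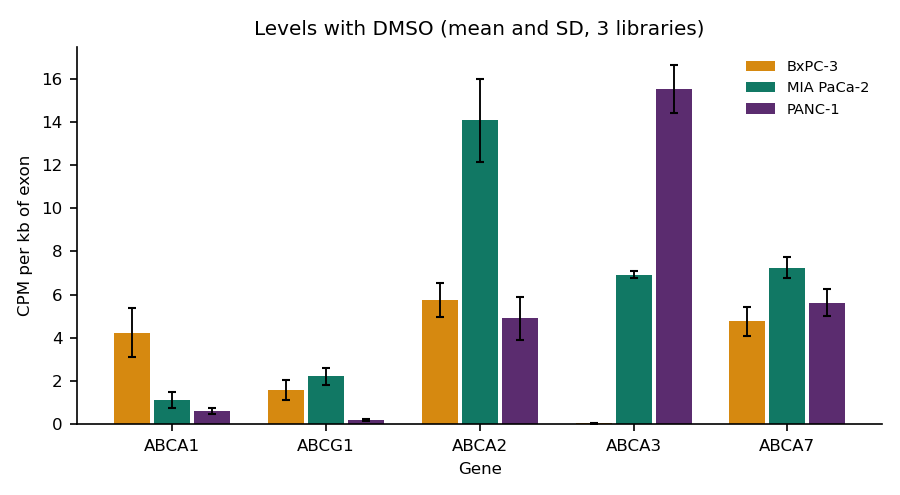
CPM per kb of exon of the 5 genes in the DMSO libraries of each line. Bars are means and whiskers SD of 3 libraries. ABCA3 goes from near 0 in BxPC-3 to 15.5 in PANC-1, and ABCA1 runs the other way, from 4.24 to 0.624.

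Between lines with DMSO, edgeR's quasi-likelihood test in 1 fit of all 36 libraries called 3 of 5 genes between BxPC-3 and PANC-1, where 52.5% of 22132 genes were called. It called 4 of 5 between BxPC-3 and MIA PaCa-2 (57.4% of genes) and 4 of 5 between MIA PaCa-2 and PANC-1 (51.2%). These counts stand beside backgrounds of over 50%, so being called between lines does not set the genes apart. ABCA3 entered this fit only through its counts in PANC-1 and MIA PaCa-2, so its calls against BxPC-3 support nothing, and its level there is given above as a description. PANC-1 exceeded MIA PaCa-2 in ABCA3, by 2.24-fold (adjusted p = 2.16e-05). ABCG1 was 12-fold higher in MIA PaCa-2 and 8.61-fold higher in BxPC-3 than in PANC-1 (adjusted p = 3.76e-08 and 2.53e-07), and BxPC-3 and MIA PaCa-2 did not pass the test against each other (log2 difference -0.48, 95% interval -1.23 to 0.28, adjusted p = 0.281). ABCA1 was 3.65-fold higher in BxPC-3 than in MIA PaCa-2 (adjusted p = 2.58e-05) and 6.78-fold higher than in PANC-1 (adjusted p = 5.37e-08). The smaller ABCA1 step from PANC-1 to MIA PaCa-2 (1.86-fold, adjusted p = 0.0315) was lost without MIA PaCa-2 DMSO replicate 1 (adjusted p = 0.123) or 2 (0.237) and without PANC-1 DMSO replicate 1 (0.126) or 3 (0.0697). ABCA2 was highest in MIA PaCa-2, by 2.45-fold over BxPC-3 (adjusted p = 0.000289) and 2.87-fold over PANC-1 (adjusted p = 4.79e-05). ABCA7 was 1.52-fold lower in BxPC-3 than in MIA PaCa-2 (adjusted p = 0.016), a call lost without DMSO replicate 1 or 3 of BxPC-3 (adjusted p = 0.0847 and 0.062) or of MIA PaCa-2 (0.0634 and 0.106).

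Each ligand was next compared with DMSO, in a fit of the 12 libraries of each line. GW3965 raised ABCA1 alone past the test in BxPC-3, and ABCA1 and ABCG1 in MIA PaCa-2 and PANC-1. ABCA2 in BxPC-3 had a log2 value of 0.44 ± 0.146 (SE) with GW3965 by edgeR, which did not pass (unadjusted p = 0.0112, adjusted p = 0.229). Against DMSO, 1 of 4 tested members was called in BxPC-3, where 1.32% of genes were called with GW3965; ABCA3 did not pass the filter on low counts there. The count was 2 of 5 in MIA PaCa-2 (0.523% of genes) and 2 of 5 in PANC-1 (0.0485% of genes, 9 genes in all). The 3 comparisons with DMSO in a line share its DMSO libraries.

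With 1E5, 3 of 5 members were called in MIA PaCa-2, where 47% of genes were called, and 2 of 5 in PANC-1, where 39.1% were called. Those shares are close to the backgrounds. ABCG1 rose and ABCA7 fell in both lines, and ABCA2 fell in MIA PaCa-2. In BxPC-3, 0 of 4 members and 0% of genes were called with 1E5 by edgeR, with 572 genes at an unadjusted p under 0.05 and 10 genes called by DESeq2 and 0 by limma-voom. The 0 of 4 members held with both other tools, and 0 had an unadjusted p under 0.05. With 3A4, edgeR called 0 of 4 members in BxPC-3 (0.0333% of genes), with ABCA2 the 1 member at an unadjusted p under 0.05 and 0 called by DESeq2 or limma-voom. It called 2 of 5 in MIA PaCa-2 (13.8%) and 2 of 5 in PANC-1 (7.37%). ABCA2 and ABCA7 fell in MIA PaCa-2 and ABCA3 and ABCA7 in PANC-1.

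**Figure D2:**
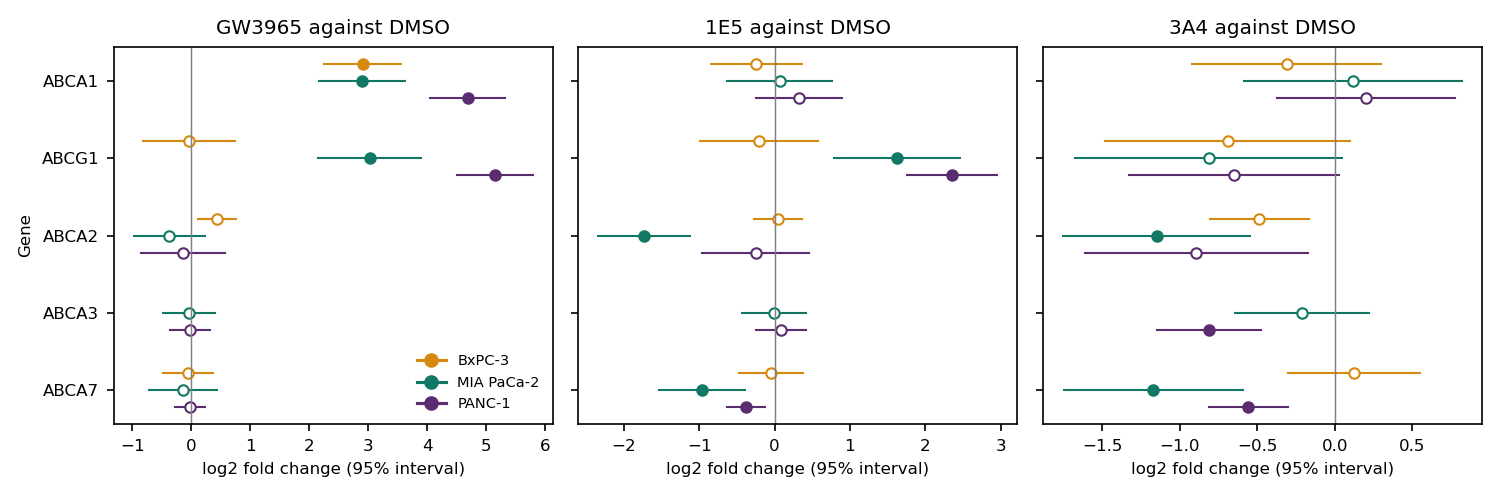
Log2 fold changes of the 5 genes against DMSO in each line, with 95% intervals from edgeR. Filled points passed the adjusted threshold of 0.05 and open points did not. ABCA3 in BxPC-3 was not fitted. ABCA1 and ABCG1 lie far to the right with GW3965 except for ABCG1 in BxPC-3, the filled points to the right with 1E5 are those of ABCG1 in MIA PaCa-2 and PANC-1, and no filled point lies to the right with 3A4.

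ABCA1 rose with GW3965 in all 3 lines and did not pass the test with 1E5 or 3A4 in any. In BxPC-3 the 3 DMSO libraries read 32.2, 47.6 and 54.9 CPM and the GW3965 libraries 355, 327 and 329 CPM. In MIA PaCa-2 they read 15, 16.5 and 8.99 CPM with DMSO and 105, 129 and 73.3 CPM with GW3965. In PANC-1 they read 5.72, 8.88 and 7.45 CPM and 164, 240 and 165 CPM. The GW3965 and DMSO libraries overlapped in none of the lines. The log2 fold changes were 2.91 ± 0.296 (SE) in BxPC-3 (7.50-fold, adjusted p = 0.00306), 2.90 ± 0.337 in MIA PaCa-2 (7.45-fold, adjusted p = 0.0038) and 4.69 ± 0.289 in PANC-1 (25.8-fold, adjusted p = 1.74e-05). The lines ended in another order than they began: the GW3965 means were 337 ± 15.9 CPM in BxPC-3, 190 ± 43.7 in PANC-1 and 102 ± 27.8 in MIA PaCa-2. The response did not pass the F test of a difference among lines (unadjusted p = 0.000398, adjusted p = 0.128), for which 0.104% of genes were called. By edgeR the PANC-1 response was above that of BxPC-3 by a log2 value of 1.81 ± 0.446 (SE, unadjusted p = 0.000347, adjusted p = 0.216). It was above that of MIA PaCa-2 by 1.79 ± 0.465 (unadjusted p = 0.000625, adjusted p = 0.266). Neither contrast passed, but an equal response of ABCA1 in all lines is not shown.

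Neither code-named compound gave a call for ABCA1. With 1E5 the means were 38.0 ± 13.5 CPM in BxPC-3, 9.23 ± 2.48 in PANC-1 and 14.4 ± 5.07 in MIA PaCa-2. With 3A4 they were 36.3 ± 9.45, 8.49 ± 2.11 and 14.8 ± 4.38 CPM in the same order. The DMSO and ligand libraries overlapped in each of these 6 comparisons. The largest change that the 95% intervals allow for a decrease was a log2 value of -0.92, for 3A4 in BxPC-3, and for an increase 0.90, for 1E5 in PANC-1. Between the 2 compounds the log2 difference of 3A4 from 1E5 was -0.07 in BxPC-3 (95% interval -0.68 to 0.54), 0.05 in MIA PaCa-2 (-0.62 to 0.72) and -0.13 in PANC-1 (-0.70 to 0.44). Both compounds lay below GW3965 in every line, 1E5 by 8.87-, 20.5- and 7.11-fold and 3A4 by 9.30-, 22.4- and 6.86-fold in BxPC-3, PANC-1 and MIA PaCa-2, with adjusted p from 1.84e-06 to 0.00401.

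**Figure D3:**
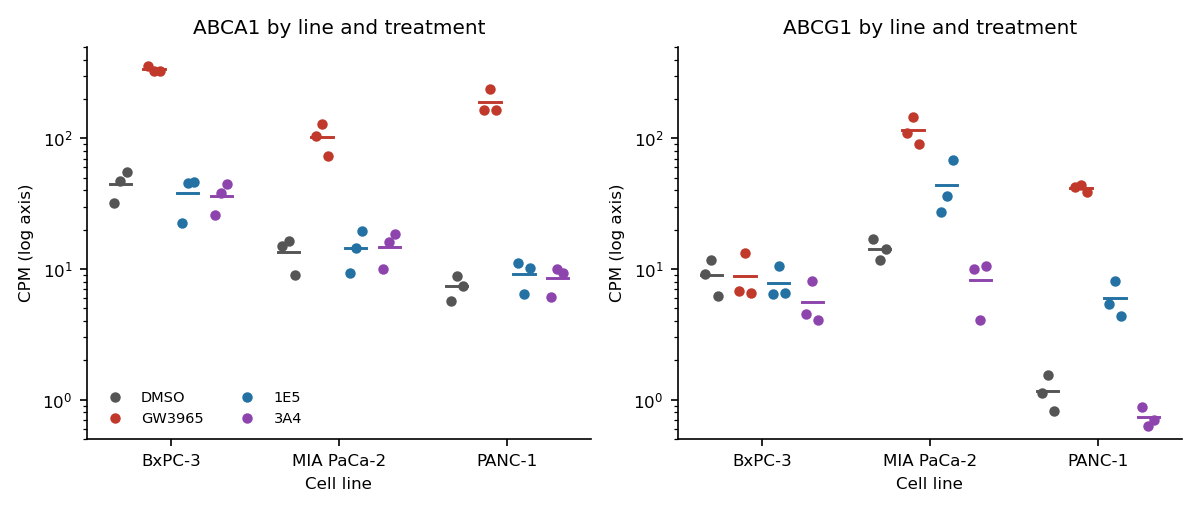
CPM of ABCA1 (left) and ABCG1 (right) in each of the 36 libraries, on a log axis. Points are libraries and short lines are means of 3. ABCA1 stands high with GW3965 in all 3 lines, ABCG1 with GW3965 in MIA PaCa-2 and PANC-1 and at a middle level with 1E5 in those lines.

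ABCG1 behaved differently from line to line. In BxPC-3 its DMSO libraries read 9.13, 11.8 and 6.25 CPM and its GW3965 libraries 6.84, 13.2 and 6.5 CPM. The groups overlapped and the log2 fold change was -0.03 (95% interval -0.81 to 0.75, adjusted p = 0.988), although ABCA1 rose in those same libraries. In MIA PaCa-2 the DMSO libraries read 17.1, 11.7 and 14.2 CPM and the GW3965 libraries 111, 145 and 90.5 CPM. They did not overlap, and ABCG1 rose 8.15-fold (log2 3.03 ± 0.403, adjusted p = 0.00773), or by a log2 value of 2.89 with adjusted p = 0.0547 without DMSO replicate 2. In PANC-1 the DMSO libraries read 1.14, 1.54 and 0.815 CPM and the GW3965 libraries 42.3, 43.6 and 38.7 CPM. ABCG1 rose 35.6-fold there (log2 5.15 ± 0.294, adjusted p = 1.74e-05).

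The GW3965 response of ABCG1 differed among lines by an F test with 2 degrees of freedom (adjusted p = 2.90e-05), and 1 of the 5 members was called in that test. Taking lines in pairs, the response was larger in PANC-1 than in BxPC-3 by a log2 value of 5.21 ± 0.553 (adjusted p = 6.15e-06; 1 of 5 members and 0.0497% of genes called). It was larger in MIA PaCa-2 than in BxPC-3 by 3.10 ± 0.520 (adjusted p = 0.00466), where 2 of 5 members and 0.163% of genes were called. The other member called there was ABCA3, whose BxPC-3 counts are too few to give a fold. PANC-1 exceeded MIA PaCa-2 by 2.11 ± 0.543, which did not pass (adjusted p = 0.248; 0 of 5 members and 0.00904% of genes called; 2 members had an unadjusted p under 0.05 by edgeR, and no other tool was run on this contrast).

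ABCG1 also rose with 1E5 in the 2 lines grown in DMEM. The 1E5 libraries read 27.2, 36.1 and 68.5 CPM in MIA PaCa-2 and 5.4, 8.17 and 4.41 CPM in PANC-1, above every DMSO library of their line. The change in MIA PaCa-2 was 3.08-fold (log2 1.62 ± 0.387, adjusted p = 0.00419). In PANC-1 it was 5.13-fold (log2 2.36 ± 0.274, adjusted p = 6.37e-05). Without PANC-1 1E5 replicate 2 the log2 value was 2.08 (adjusted p = 6.20e-05), and without the 2 shallowest MIA PaCa-2 libraries it was 1.63 (adjusted p = 0.0181). These were lower levels than with GW3965, by 2.64-fold in MIA PaCa-2 (adjusted p = 0.00859) and 6.94-fold in PANC-1 (adjusted p = 1.74e-05). In BxPC-3 the 1E5 libraries read 6.46, 10.5 and 6.61 CPM, which overlapped DMSO (log2 -0.20, 95% interval -0.98 to 0.58).

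The 1E5 response of ABCG1 differed among lines (adjusted p = 0.000857), in a test that called 2 of 5 members and 38.5% of genes. Against BxPC-3 it was larger by a log2 value of 2.55 ± 0.546 in PANC-1 (adjusted p = 0.00139; 1 of 5 members and 15.4% of genes called). In MIA PaCa-2 it was larger than in BxPC-3 by 1.92 ± 0.514 (adjusted p = 0.00552; 3 of 5 members and 27.5% of genes called). PANC-1 and MIA PaCa-2 did not pass against each other for ABCG1 (log2 difference 0.63, 95% interval -0.49 to 1.75), where 1 of 5 members and 28.4% of genes were called. Without PANC-1 1E5 replicate 2, the PANC-1 response of ABCG1 exceeded that of BxPC-3 by 2.27 (adjusted p = 0.00565). It exceeded that of MIA PaCa-2 by 0.29, which did not pass (adjusted p = 0.838).

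With 3A4, ABCG1 read lower than with DMSO in each line but passed the test in none. Its libraries read 4.55, 8.16 and 4.08 CPM in BxPC-3, 10.1, 4.11 and 10.5 CPM in MIA PaCa-2 and 0.883, 0.626 and 0.703 CPM in PANC-1. All MIA PaCa-2 values lay below the DMSO libraries, and the other lines overlapped. The log2 fold changes were -0.69 (95% interval -1.48 to 0.10, adjusted p = 0.467), -0.81 (-1.68 to 0.05, adjusted p = 0.188) and -0.65 (-1.32 to 0.03, adjusted p = 0.22). The PANC-1 values rest on 11 to 38 counts per library with DMSO or 3A4.

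The code-named compounds, given at the same dose and time, differed for ABCG1 in MIA PaCa-2 and PANC-1. The MIA PaCa-2 libraries with 3A4 lay 5.42-fold below those with 1E5 (log2 -2.44 ± 0.389, adjusted p = 0.000462), and those of PANC-1 lay 8.04-fold below (-3.01 ± 0.291, adjusted p = 2.15e-05). In BxPC-3 the difference was -0.49 (95% interval -1.28 to 0.30, adjusted p = 0.572). Of all members, 0 of 4 were called between 3A4 and 1E5 in BxPC-3 (0.144% of genes; ABCA2 alone at an unadjusted p under 0.05, and called by DESeq2 with adjusted p = 0.0369), 1 of 5 in MIA PaCa-2 (32.4%) and 2 of 5 in PANC-1 (37.3%). The other call in PANC-1 was ABCA3.

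Against GW3965 the counts of members called with 1E5 were 1 of 4 in BxPC-3 (0.637% of genes), 4 of 5 in MIA PaCa-2 (40%) and 3 of 5 in PANC-1 (34.7%). With 3A4 they were 2 of 4 (6.51%), 3 of 5 (8.68%) and 4 of 5 (7.27%). Apart from ABCA1 and ABCG1, 3A4 lay below GW3965 for ABCA2 in BxPC-3 (log2 -0.93 ± 0.147, adjusted p = 0.00592). It also did so for ABCA7 in MIA PaCa-2 (-1.03 ± 0.268, adjusted p = 0.0349) and PANC-1 (-0.54 ± 0.115, 0.0199), and for ABCA3 in PANC-1 (-0.79 ± 0.154, 0.0132). With 1E5 the further calls, all lower, were ABCA2 and ABCA7 in MIA PaCa-2 and ABCA7 in PANC-1. How these further calls depend on other settings is not given here. For ABCG1, 3A4 lay 14.3-fold below GW3965 in MIA PaCa-2 (adjusted p = 0.000854) and 55.8-fold below in PANC-1 (adjusted p = 3.41e-06), the largest difference seen between any 2 treatments of a line for these 5 genes. In BxPC-3 neither compound passed against GW3965 for ABCG1 (adjusted p = 0.911 and 0.294).

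The ratio of ABCG1 to ABCA1 counts in a library does not depend on scaling. In MIA PaCa-2 it read 1.14, 0.711 and 1.58 with DMSO and 1.06, 1.13 and 1.24 with GW3965, and the groups overlapped. With 1E5 it read 2.93, 2.48 and 3.53, above all DMSO libraries. In PANC-1 it read 0.198, 0.174 and 0.109 with DMSO, 0.257, 0.181 and 0.235 with GW3965 and 0.484, 1.27 and 0.437 with 1E5. The GW3965 and DMSO ratios overlapped and the 1E5 ratios lay above both, the value of 1.27 being that of 1E5 replicate 2. In BxPC-3 the ratio went the other way with GW3965, from 0.284, 0.247 and 0.114 with DMSO to 0.0193, 0.0405 and 0.0198, with no overlap. An exact permutation test of 3 against 3 libraries cannot give a p below 0.1, so none is given.

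**Figure D4:**
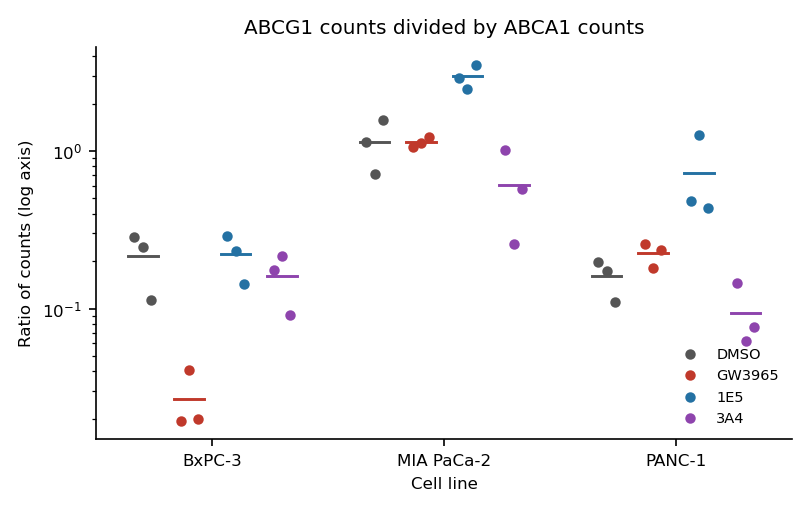
ABCG1 counts divided by ABCA1 counts in each library, on a log axis, for the 4 treatments of each line. Points are libraries and short lines are means of 3. With 1E5 the ratio stands above DMSO in MIA PaCa-2 and PANC-1, and with GW3965 it stands below DMSO in BxPC-3.

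ABCA2 did not pass the test with GW3965 in any line, and fell with both code-named compounds in MIA PaCa-2. The MIA PaCa-2 libraries read 195, 144 and 176 CPM with DMSO, 114, 128 and 157 CPM with GW3965, 38.9, 43.8 and 72.8 CPM with 1E5 and 72.9, 51.1 and 108 CPM with 3A4. All 1E5 and 3A4 values lay below the DMSO values. ABCA2 fell 3.31-fold with 1E5 (log2 -1.73 ± 0.283, adjusted p = 0.00033), and by a log2 value of -1.70 without the 2 shallowest libraries (adjusted p = 0.00205). With 3A4 it fell 2.22-fold (log2 -1.15 ± 0.280, adjusted p = 0.0198). That call was lost without 3A4 replicate 2 (adjusted p = 0.0803), DMSO replicate 1 (0.0638) or 3 (0.0609), or the 2 shallowest libraries (0.0672).

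In PANC-1 the DMSO libraries read 50.04, 71.8 and 53.7 CPM of ABCA2 and the 1E5 libraries 29.5, 82.6 and 35.8 CPM. The value of 82.6 belongs to replicate 2, the library with the mitochondrial share of 6.59%. The log2 fold change was -0.25 ± 0.324 (adjusted p = 0.576) with that library and -0.84 (adjusted p = 0.00751) without it. With 3A4 the libraries read 29.6, 36.4 and 28.6 CPM, all below DMSO, at a log2 value of -0.89 ± 0.328 that did not pass (adjusted p = 0.121). It passed without the 1E5 libraries in the fit (adjusted p = 0.0123), with the compared groups alone (0.0173) and with DESeq2 (0.0457). The 3A4 value differed from that of 1E5 by -0.64 (95% interval -1.36 to 0.07), and by -0.06 (adjusted p = 0.856) without 1E5 replicate 2. Of the 6 fits that left out 1 library, 1 passed (adjusted p = 0.0387).

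In BxPC-3 the ABCA2 libraries read 52.3, 67.7 and 65.2 CPM with DMSO, 66.0, 96.8 and 88.6 CPM with GW3965, 62.4, 69.6 and 59.6 CPM with 1E5 and 47.1, 43.0 and 42.2 CPM with 3A4. The 3A4 values lay below all DMSO values without passing the test (log2 -0.49 ± 0.147, adjusted p = 0.239). The 1E5 response of ABCA2 differed among lines (adjusted p = 0.00251). In MIA PaCa-2 it was lower than in BxPC-3 by a log2 value of -1.68 ± 0.397 (adjusted p = 0.00191), and the PANC-1 value exceeded that of MIA PaCa-2 by 1.37 ± 0.397 (adjusted p = 0.00962). Without PANC-1 1E5 replicate 2 that last contrast was 0.73 and did not pass (adjusted p = 0.133), while the difference among lines had an adjusted p of 0.00107.

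**Figure D5:**
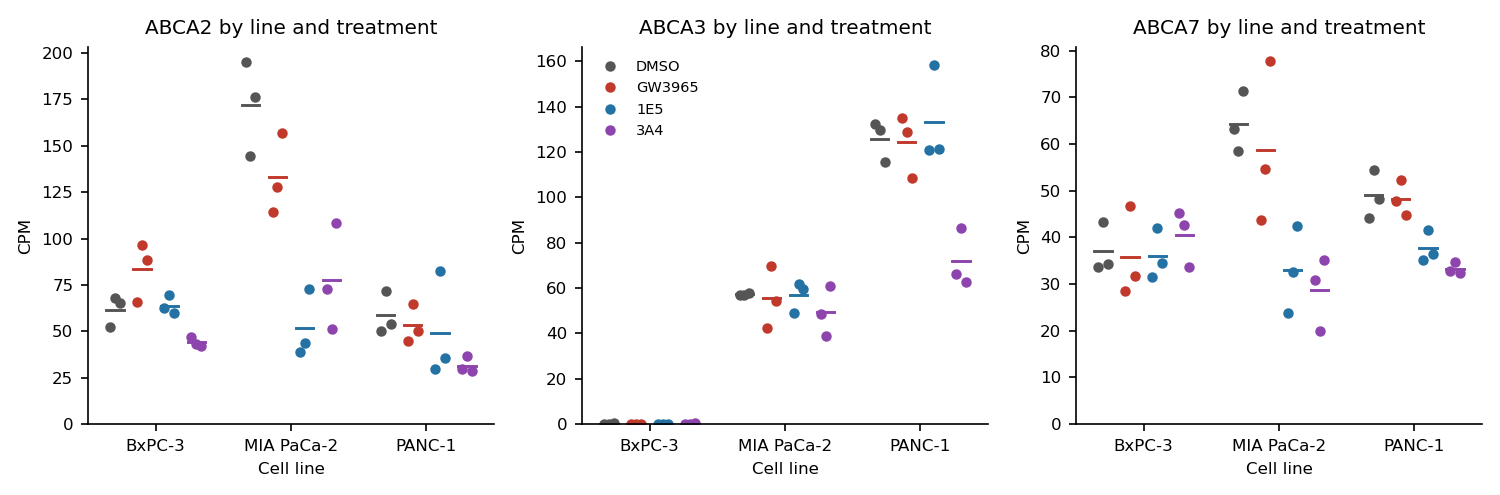
CPM of ABCA2, ABCA3 and ABCA7 in each of the 36 libraries, on linear axes from 0. Points are libraries and short lines are means of 3. ABCA2 and ABCA7 stand low with 1E5 and 3A4 in MIA PaCa-2, ABCA3 stands low with 3A4 in PANC-1, and ABCA3 is near 0 throughout BxPC-3.

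ABCA3 was near absent from BxPC-3, and among the ligands only 3A4 moved it past the test, in PANC-1. In BxPC-3 its counts were 5, 5 and 8 with DMSO, 0 in each library with GW3965, 0, 3 and 4 with 1E5 and 4, 4 and 5 with 3A4. The DMSO sum of 18 counts in 72923956 was 0.247 CPM of the unscaled total (95% Poisson interval 0.146 to 0.390, which covers counting error only). With GW3965 the 0 counts in 66195933 gave a 95% Poisson interval up to 0.0557 CPM, under the DMSO interval, a difference among very few reads. In MIA PaCa-2 the DMSO libraries read 56.8, 57.0 and 58.0 CPM, and no ligand passed, with log2 values of -0.03 for GW3965, -0.01 for 1E5 and -0.21 for 3A4.

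In PANC-1 ABCA3 read 133, 130 and 116 CPM with DMSO, 135, 129 and 109 CPM with GW3965, 121, 158 and 121 CPM with 1E5 and 66.1, 86.7 and 62.7 CPM with 3A4. The 3A4 libraries lay below all others. ABCA3 fell 1.75-fold against DMSO (log2 -0.81 ± 0.154, adjusted p = 0.0114), a call lost without 3A4 replicate 1 (adjusted p = 0.0592) or 3 (0.0572). Against 1E5 it was 1.86-fold lower (log2 -0.89 ± 0.154, adjusted p = 0.000962), and a log2 value of -0.76 (adjusted p = 0.00195) remained without 1E5 replicate 2. In MIA PaCa-2 3A4 and 1E5 differed by -0.20 (95% interval -0.62 to 0.22). Between PANC-1 and MIA PaCa-2 the 3A4 response of ABCA3 differed by a log2 value of -0.71 ± 0.282 (SE), which did not pass (adjusted p = 0.152). BxPC-3 held too few counts for such a comparison.

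ABCA7 fell with 1E5 and with 3A4 in MIA PaCa-2 and PANC-1 and did not pass the test with GW3965 in any line. The MIA PaCa-2 libraries read 63.3, 58.5 and 71.4 CPM with DMSO, 23.8, 32.7 and 42.5 CPM with 1E5 and 30.8, 19.9 and 35.1 CPM with 3A4. Neither compound's libraries overlapped DMSO. The falls were 1.95-fold with 1E5 (log2 -0.96 ± 0.264, adjusted p = 0.00941) and 2.25-fold with 3A4 (log2 -1.17 ± 0.266, adjusted p = 0.0152). The 3A4 call was lost without 3A4 replicate 2 (adjusted p = 0.0658) or DMSO replicate 3 (0.0565).

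In PANC-1 the ABCA7 libraries read 44.2, 54.4 and 48.3 CPM with DMSO, 35.2, 41.5 and 36.4 CPM with 1E5 and 32.7, 34.8 and 32.4 CPM with 3A4. Both ligand groups lay below DMSO. The responses of PANC-1 and MIA PaCa-2 did not pass a test against each other (adjusted p = 0.248 with 1E5 and 0.381 with 3A4). ABCA7 fell 1.3-fold with 1E5 (log2 -0.38 ± 0.115, adjusted p = 0.0217) and 1.47-fold with 3A4 (log2 -0.56 ± 0.115, adjusted p = 0.016). The 1E5 call was lost without 1E5 replicate 1 (adjusted p = 0.0668) or 3 (0.0673), without DMSO replicate 2 (0.0695) or 3 (0.0519), with the compared groups alone (0.0823) and with all 36 libraries in 1 fit (0.174). The 3A4 call was lost without 3A4 replicate 1 (0.0698) or 3 (0.0694), without DMSO replicate 2 (0.0608) or 3 (0.0506) and with all 36 libraries in 1 fit (0.105).

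In BxPC-3 ABCA7 read 33.7, 43.3 and 34.4 CPM with DMSO, 31.5, 41.9 and 34.6 CPM with 1E5 and 45.1, 42.6 and 33.6 CPM with 3A4, and all groups overlapped. Its 3A4 response differed among lines (adjusted p = 0.0379), in a test that called 1 of 5 members and 5.89% of genes. In MIA PaCa-2 it was lower than in BxPC-3 by a log2 value of -1.19 ± 0.300 (adjusted p = 0.0201; 1 of 5 members and 4.56% of genes called). The difference among lines did not pass when any of 11 of the 18 libraries with DMSO or 3A4 was left out (adjusted p up to 0.12). For 1E5 the difference among lines had an adjusted p of 0.0779. Between the 2 compounds ABCA7 differed by a log2 value of -0.21 in MIA PaCa-2 (95% interval -0.77 to 0.36) and -0.18 in PANC-1 (-0.43 to 0.07).

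LXR itself is encoded by NR1H2 (LXR beta) and NR1H3 (LXR alpha). With DMSO, NR1H2 stood at 47.3 ± 2.02 CPM in BxPC-3, 40.1 ± 2.93 in PANC-1 and 41.0 ± 5.82 in MIA PaCa-2, and NR1H3 at 3.99 ± 1.44, 6.64 ± 1.65 and 4.23 ± 0.786 CPM. GW3965 moved neither gene past the adjusted threshold in any line. NR1H3 in PANC-1 nevertheless had a log2 value of 0.94 ± 0.203 with GW3965 by edgeR (unadjusted p = 0.000621, adjusted p = 0.267). Its libraries there ran from 11.2 to 14.3 CPM with GW3965, 10.4 to 13.7 with 1E5 and 4.79 to 7.96 with DMSO. In PANC-1, 0.0485% of genes were called with GW3965 and 39.1% with 1E5. NR1H2 rose with 1E5 by a log2 value of 0.57 ± 0.152 in MIA PaCa-2 (adjusted p = 0.00853) and 0.56 ± 0.106 in PANC-1 (adjusted p = 0.00163), the lines in which ABCG1 rose, and NR1H3 rose with 1E5 in PANC-1 by 0.88 ± 0.203 (adjusted p = 0.0051). RXRA, which encodes an RXR partner, fell with 3A4 in PANC-1 (log2 -0.48 ± 0.110, adjusted p = 0.0255) and MIA PaCa-2 (-0.58 ± 0.138, adjusted p = 0.0178), and with 1E5 in MIA PaCa-2 (-0.58 ± 0.137, adjusted p = 0.00413).

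Of 19 further LXR targets, 15 were tested in BxPC-3 and 14 in each of the other lines. GW3965 raised 6 of 15 in BxPC-3, 4 of 14 in MIA PaCa-2 and 2 of 14 in PANC-1 by edgeR, beside 1.32%, 0.523% and 0.0485% of all genes. The median log2 values of these targets were 0.47, 0.65 and 0.71, beside medians near 0 (-0.0037, -0.0014 and -0.00043) over all genes tested. With 1E5, 3 rose and 5 fell of 14 in MIA PaCa-2 and 6 rose and 5 fell of 14 in PANC-1, beside 47% and 39.1% of all genes. With 3A4, 3 fell in PANC-1 and 2 in MIA PaCa-2, beside 7.37% and 13.8%. The 3 called most often were LPCAT3, a lysophospholipid acyltransferase, FASN, the fatty acid synthase, and SREBF1, a regulator of lipid synthesis. All 3 fell with 1E5 in the lines in which ABCG1 rose. LPCAT3 had log2 values of -1.75 ± 0.102 in PANC-1 and -1.60 ± 0.209 in MIA PaCa-2 (adjusted p = 7.46e-07 and 6.16e-05). Those of FASN were -2.46 ± 0.249 and -1.37 ± 0.164 (adjusted p = 2.50e-05 and 3.26e-05), and those of SREBF1 -1.26 ± 0.423 and -1.24 ± 0.128 (adjusted p = 0.0341 and 1.19e-05). SREBF1 in PANC-1 was spread from 41.9 to 158 CPM with 1E5, and its log2 value was -2.14 (adjusted p = 5.22e-05) without 1E5 replicate 2. The falls were not particular to 1E5. With 3A4, LPCAT3 fell in PANC-1 (log2 -0.66 ± 0.099, adjusted p = 0.00348) and MIA PaCa-2 (-1.02 ± 0.207, 0.00968). FASN fell with 3A4 in PANC-1 (-1.24 ± 0.239, adjusted p = 0.0122) and SREBF1 in MIA PaCa-2 (-0.50 ± 0.127, 0.025). FASN in MIA PaCa-2 (-0.23, adjusted p = 0.358) and SREBF1 in PANC-1 (-1.37, 0.0738) did not pass with 3A4. In BxPC-3 with GW3965, where ABCG1 had a log2 value of -0.03, the 3 genes rose by 0.84 ± 0.136, 1.55 ± 0.192 and 1.58 ± 0.244 (adjusted p = 0.0134, 0.00355 and 0.0112).

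Of the 12 other genes of the ABCA and ABCG subfamilies, edgeR called 0 of 8, 0 of 6 and 0 of 7 tested with GW3965 in BxPC-3, PANC-1 and MIA PaCa-2, and 2 in MIA PaCa-2 had an unadjusted p under 0.05. The shares of all genes called were 1.32%, 0.0485% and 0.523%. On the same list DESeq2 called 1 gene, ABCA10 in MIA PaCa-2, and limma-voom called 0. With 1E5, 4 of 7 tested rose and 1 fell in MIA PaCa-2, and 3 of 6 fell in PANC-1, beside 47% and 39.1% of all genes. ABCG2, a multidrug and urate exporter, read 0.405 ± 0.353 CPM with DMSO and 2.13 ± 0.554 with 1E5 in MIA PaCa-2. It had 10 counts in all with DMSO there and entered the fit only through the 1E5 and 3A4 groups. Its calls with 1E5 and 3A4 in that line, included in the counts of this list, therefore support nothing. In PANC-1 it fell from 173 ± 33.4 to 40.9 ± 3.86 CPM (log2 -2.08 ± 0.175, adjusted p = 7.33e-06). ABCA5 fell with 1E5 in PANC-1 (log2 -0.94 ± 0.288, adjusted p = 0.0223) and rose in MIA PaCa-2 (2.58 ± 0.856, adjusted p = 0.0249). The MIA PaCa-2 value rests on 46 counts in all with DMSO, where libraries ran from 0 to 3.43 CPM. ABCA10 rose in MIA PaCa-2 with 1E5 (2.56 ± 0.405, adjusted p = 0.000248) and with 3A4 (1.35 ± 0.404, adjusted p = 0.0432). With 3A4, 2 rose and 1 fell in MIA PaCa-2 and 1 fell in PANC-1, beside 13.8% and 7.37% of all genes. 

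Among 31 genes of the remaining ABC subfamilies, GW3965 raised 1 of 23 and lowered 1 in BxPC-3, and raised 1 of 21 in MIA PaCa-2 by edgeR. The shares of all genes called there were 1.32% and 0.523%. With 1E5, 5 rose and 3 fell of 21 in MIA PaCa-2 and 4 rose and 5 fell of 21 in PANC-1, beside 47% and 39.1% of all genes, so these counts do not set the list apart. ABCC3, an organic anion exporter, rose with 1E5 by a log2 value of 3.39 ± 0.423 in MIA PaCa-2 (adjusted p = 4.48e-05) and 0.72 ± 0.112 in PANC-1 (adjusted p = 0.000448), and with GW3965 in MIA PaCa-2 by 2.34 ± 0.426 (adjusted p = 0.0319). ABCB9, a lysosomal peptide transporter, fell with 1E5 in both lines, at log2 values of -1.98 ± 0.259 and -1.16 ± 0.232 (adjusted p = 6.27e-05 and 0.00224). ABCC4, an exporter of cyclic nucleotides, fell with 1E5 in PANC-1 (log2 -1.20 ± 0.118, adjusted p = 2.20e-05) and rose in MIA PaCa-2 (0.75 ± 0.167, adjusted p = 0.00275).

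Of 20 genes of cholesterol efflux and traffic, GW3965 raised 1 of 18 and lowered 1 in BxPC-3 by edgeR, beside 1.32% of all genes. With 1E5, 4 rose and 5 fell of 16 in MIA PaCa-2 and 5 rose and 5 fell of 16 in PANC-1, beside 47% and 39.1% of all genes. With 3A4, 4 rose and 2 fell in MIA PaCa-2 and 2 rose in PANC-1, beside 13.8% and 7.37%. NPC1, which exports cholesterol from lysosomes, rose with 1E5 by a log2 value of 0.83 ± 0.0982 in PANC-1 and 0.88 ± 0.148 in MIA PaCa-2 (adjusted p = 7.39e-05 and 0.000403) and with 3A4 by 0.44 ± 0.0978 and 0.65 ± 0.148 (adjusted p = 0.023 and 0.015). LIPA, the lysosomal acid lipase that frees cholesterol from its esters, fell with 1E5 in the same lines, at log2 values of -0.62 ± 0.150 and -1.68 ± 0.211 (adjusted p = 0.00671 and 4.62e-05). GRAMD1B, a carrier of cholesterol to the endoplasmic reticulum, rose with 1E5 in MIA PaCa-2 by 1.33 ± 0.192 (adjusted p = 0.000128). Of 9 lamellar body and surfactant genes, 3 passed the filter. Among them LAMP3 went from 10.1 ± 6.08 CPM with DMSO to 110 ± 22.1 with 1E5 in PANC-1 (log2 3.44 ± 0.398, adjusted p = 6.27e-05), where ABCA3 stood at 133 ± 21.6 CPM. In MIA PaCa-2 LAMP3 had 0 counts with DMSO and entered the fit only through ligand groups, so its calls there support nothing. Its levels there were 32.7 ± 3.65 CPM with 1E5 and 1.23 ± 0.0441 CPM with 3A4. In BxPC-3 LAMP3 fell with GW3965 (log2 -1.72 ± 0.269, adjusted p = 0.0115).

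Genes that followed each member most closely were ranked by Pearson's r of log2 CPM over the 36 libraries with each line's mean removed. The libraries share treatments and depth, so r is a description. ABCA1 was followed by MYLIP (r = 0.954), a ligase that degrades the LDL receptor, and by ACSL3 (0.880) and ACSS2 (0.831), which activate fatty acids and acetate. ABCG1 was followed by PHGDH (0.837), the first enzyme of serine synthesis, by MID1IP1 (0.806) and by RUSC1-AS1 (0.770). The r of ABCG1 and PHGDH was 0.944 in MIA PaCa-2, 0.875 in PANC-1 and 0.307 in BxPC-3. ABCA2 was followed by SYNGR1 (0.920), GSN (0.915) and FBLN1 (0.899), and ABCA7 by MAP3K12 (0.890), TMEM94 (0.874) and CLSTN3 (0.862). ABCA3 was followed by ENPP4 (0.834), SLAMF6 (0.826) and SLC6A14 (0.788). Within PANC-1 the r was 0.809 for ENPP4 and -0.212 for both SLAMF6 and SLC6A14. In BxPC-3, where ABCA3 had 0 to 8 counts per library, the r was 0.879, 0.956 and 0.911 for the 3 genes. No r was defined for them in MIA PaCa-2. Among the members the closest pairs were ABCA2 with ABCA7 (0.745) and ABCA1 with ABCG1 (0.733), and the r of ABCA1 with ABCA3 was -0.194.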

How the data were processed

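Libraries were made with a stranded kit from 500 ng of column-purified total RNA, per the labels' protocols. The 36 libraries share 1 deposited table, which holds whole-number counts for each gene. Trim Galore 0.4.4, HISAT2 2.0.2, SAMtools 1.3, StringTie 1.3.1c and GRCh38 are named in the submitters' processing notes, without roles. Which annotation, strand setting and treatment of reads fitting several genes were used is not given in the sources used here. How reads of overlapping genes were shared between them is therefore not known.

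Of 58658 lines, 407 transcript entries and 8 locus entries were left out, at most 0.00396% of a library's counts. The 5 genes were matched by symbol, and positions and exon lengths come from GENCODE 29. In each line edgeR 4.0.16 (R 4.3.3) took all 12 libraries, each group with its own mean, and used TMM scaling, filterByExpr (minimum count 10, total 15) with a two-sided quasi-likelihood test, adjusted by Benjamini and Hochberg over 18042 (BxPC-3), 16254 (MIA PaCa-2) or 18544 (PANC-1) genes with a threshold of 0.05. Lines with DMSO, and ligand responses among lines, were tested in 1 fit of 36 libraries over 22132 genes. CPM within a line are counts over the TMM-scaled total, as mean ± SD. Levels per kb use the scaling of all 36.

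The members and the gene lists were chosen with earlier results of these data known. Named genes were the members, the 3 genes most like each (r of log2 CPM, prior count 2), NR1H2, NR1H3 and up to 3 genes per list called against DMSO most often. Counts of called genes per list stand beside the share called among all genes. The medians of the LXR targets with GW3965 stand beside those of all genes. No list was tested as a set. Alternatives were RLE scaling, no filter, DESeq2 1.42.0, limma-voom (limma 3.58.1), the compared groups alone, 1 fit of all libraries, the replicate number as a block, and leaving out single libraries, the 2 shallowest MIA PaCa-2 libraries or the 1E5 libraries. The genes from the lists without PANC-1 1E5 replicate 2, and DESeq2 and limma-voom on 1 list, were added after seeing the data.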

Additional observations from a re-analysis of the deposited data

Results flagged for a closer look

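For 4 results the test of a difference in ligand response among the 3 lines passed. For ABCG1 with GW3965 the adjusted p was 2.90e-05 (log2 fold changes of -0.03 in BxPC-3, 5.15 in PANC-1 and 3.03 in MIA PaCa-2). For ABCG1 with 1E5 it was 0.000857 (-0.20, 2.36 and 1.62 in the same order), and for ABCA2 with 1E5 it was 0.00251 (0.05, -0.25 and -1.73). For ABCA7 with 3A4 it was 0.0379 (0.12, -0.56 and -1.17), a result lost when any of 11 libraries was left out. BxPC-3 grew in another medium than the other lines, and MIA PaCa-2 libraries with DMSO were shallower than those with 1E5. Line and medium cannot be told apart, and the part of depth was not tested.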

How the results depend on the processing

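Of 245 values of 42 called results under other scaling, filters, tools or sets of libraries, 241 kept direction and call and 4 lost the call, each named with its gene in the report. Leaving out 1 library at a time gave 300 values, of which 265 kept the call and 35 lost it, and 0 called results changed direction. RLE scaling lost no call. A reversed sign was seen only among uncalled results whose log2 value was at most 0.249 in size (49 values of 21 results). The replicate numbers did not meet the bar for pairing, a correlation of same-numbered deviations above 0.1 in every pair: 8, 4 and 5 of 18 pairs did in BxPC-3, PANC-1 and MIA PaCa-2. Same-numbered libraries correlated above the mean of the differently numbered ones in 18, 17 and 16 of 18 pairs, a hint from the data and not from the design. With the replicate block, ABCG1 with GW3965 had log2 values of 5.18 in PANC-1 and 3.06 in MIA PaCa-2, no call was lost, and 4 were gained: ABCA2 with 3A4 in PANC-1 (-0.88, adjusted p = 0.0273) and against 1E5 in MIA PaCa-2 (0.57, 0.0477), ABCG1 with 3A4 against GW3965 in BxPC-3 (-0.65, 0.0222) and the ABCA7 response to 1E5 among lines (0.00936). It raised the genes called for 3A4 against 1E5 in BxPC-3 from 26 to 412, and DESeq2 raised them to 443. Genes called overall rose from 239, 9 and 85 to 546, 92 and 249 with DESeq2 for GW3965 in BxPC-3, PANC-1 and MIA PaCa-2, and limma-voom called 18 in MIA PaCa-2. For 3A4, DESeq2 called 340 rather than 6 in BxPC-3 and 2416 rather than 1367 in PANC-1. Uncalled signs that changed, the cause of which was not tested, were ABCA1 with 1E5 in MIA PaCa-2 (limma-voom -0.043, without the 2 shallowest libraries -0.12) and with 3A4 there (-0.045 without those 2), ABCA3 with 1E5 in MIA PaCa-2 (DESeq2 0.075, RLE 0.038, 1 fit 0.080, no filter 0.091, compared groups 0.019, without the 2 shallowest 0.0053) and ABCA3 with GW3965 there (0.0035 without those 2).

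Leaving out 1 library moved log2 values over these ranges. ABCG1 with GW3965 in MIA PaCa-2 ran from 2.83 to 3.19, and ABCA1 in MIA PaCa-2 against PANC-1 from 0.60 to 1.04. Against DMSO, ABCA1 ran from -0.43 to 0.024 with 1E5 in BxPC-3, and in MIA PaCa-2 from -0.20 to 0.31 with 1E5 and from -0.067 to 0.36 with 3A4. For 3A4 against 1E5, ABCA1 ran from -0.34 to 0.12 in BxPC-3, -0.33 to 0.068 in PANC-1 and -0.19 to 0.32 in MIA PaCa-2, and ABCA7 from -0.40 to 0.011 in MIA PaCa-2. In BxPC-3, ABCG1 ran from -0.44 to 0.20 with GW3965, -0.47 to 0.031 with 1E5 and -0.44 to 0.24 for 1E5 against GW3965. ABCA2 ran from -0.057 to 0.12 with 1E5 in BxPC-3, and in PANC-1 from -0.84 to 0.013 with 1E5 and -0.31 to 0.033 with GW3965. ABCA3 ran from -0.070 to 0.092 with 1E5 and -0.24 to 0.13 with GW3965 in MIA PaCa-2, and from -0.055 to 0.15 with 1E5 and -0.089 to 0.068 with GW3965 in PANC-1. ABCA7 with GW3965 ran from -0.30 to 0.079 in BxPC-3, -0.088 to 0.060 in PANC-1 and -0.36 to 0.030 in MIA PaCa-2, and with 1E5 in BxPC-3 from -0.17 to 0.080.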
